A study of Mus musculus with 2 samples.

Results

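The genes described here encode the matrix metalloproteinases (Mmp), the ADAM and ADAMTS proteases, the ADAMTS-like proteins and the tissue inhibitors of metalloproteinases (Timp). They were chosen by symbol in a table of ATAC-seq peaks from mouse cardiac fibroblasts, as every gene whose symbol starts with Mmp, Timp or Adam and a number, or with Adamts. This gave 57 of the 16934 genes with an assigned peak and 244 of all 63316 peaks. They comprised 17 Mmp genes with 33 peaks, 3 Timp genes with 13, 15 Adam genes with 66, 17 Adamts genes with 93 and 5 Adamts-like genes with 39. Of the family names in the GENCODE M21 annotation, 28 had no peak assigned to them, among them Mmp1a, Mmp7, Mmp8, Mmp12, Mmp13, Timp4, Adam8 and 17 other Adam genes that include the testis ADAMs Adam2, Adam24 and Adam30.

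Matrix metalloproteinases are zinc enzymes, made as inactive precursors, that cut collagens, gelatin and other proteins of the extracellular matrix, and TIMPs bind to their active site and block it. Many ADAMs sit in the cell membrane and release the outer parts of other membrane proteins, whereas ADAMTS enzymes are secreted and trim procollagens or cut proteoglycans such as versican and aggrecan. Cardiac fibroblasts make many of these proteins, and the balance of enzymes and inhibitors sets how much matrix is kept in the heart.

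Primary murine cardiac fibroblasts gave both libraries after 24 h with 5 ng/ml TGF-β, a cytokine that turns fibroblasts into contractile, matrix-producing myofibroblasts. Before the treatment the cells had received scrambled siRNA (SCR, the library titled NC) or siRNA against Piezo2 (siPiezo2), which encodes a mechanically gated cation channel. With 1 library in each group, no difference below has a replicate check, no test was made, and each 95% interval, an exact binomial (Clopper-Pearson) interval, covers counting error only. The number of mice behind each library is not given in the sources used here, and there was no library without TGF-β.

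Within the peak windows, SCR had 4615335 reads and siPiezo2 had 2754046, with medians of 58 and 36 reads per window. Peaks called in both libraries with as many reads as the family's had 2.28 times the variance that counting gives, so a widened interval is also given for each of the 57 genes where it reaches 0 and the counting interval does not. Intervals of single peaks and of intergenic sums cover counting error alone. Piezo2 itself, over 14 peaks, had densities that added up to 334 in SCR and 242 in siPiezo2, which does not measure the knockdown since an siRNA acts on the transcript. Of the fibroblast markers 8 of 10 had a peak (Thy1 and Lum had none), and their densities added up to 1201 and 1110. Markers of other cells also had peaks, 3 of 8 for cardiomyocytes (none at Myh6, Myl2, Nppa, Tnni3 and Ttn), 7 of 8 for endothelium (none at Tie1), 5 of 8 for leukocytes (none at Cd68, Adgre1 and Fcgr1) and 6 of 8 for mural cells (none at Kcnj8 and Des). Their summed densities in SCR and siPiezo2 were 146 and 152, 644 and 648, 283 and 281, and 645 and 517 in the same order. Of the 6 mural markers with a peak 4 were lower in siPiezo2, Rgs5 the furthest (127 and 56.0). Cspg4 (147 and 165) and Abcc9 (29.3 and 31.4) were higher. The part of mural cells in the differences below was not tested. In such bulk libraries fewer cells of a type and less signal per cell cannot be told apart. The description of the series names a knockout of Tet3 with Cre, and the methods describe minced tissue, whereas the labels and the legend name cells and an siRNA. These points were not settled.

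The start regions are shown first, since they differ in sequence across the family. Of the 57 genes, 33 matched a RefSeq promoter sequence (mouse GRCm38.p6) by symbol, and the 250 bases before each start were read. A group of Mmp genes on chromosome 9 shares the letters TGAGTCA or TGACTCA, which are reverse complements of each other and are the site that AP-1 factors such as Fos and Jun bind. These stretches are shown because 3 of their genes, Mmp1b, Mmp3 and Mmp10, had the lowest ratios among the secreted Mmp genes. They are written on the strand of the gene with the letters in capitals.
Mmp13, chr9:7272462-7272502, plus strand: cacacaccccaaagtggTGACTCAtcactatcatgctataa
Mmp12, chr9:7347313-7347353, plus strand: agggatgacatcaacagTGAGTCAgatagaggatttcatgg
Mmp1b, chr9:7388096-7388136, minus strand: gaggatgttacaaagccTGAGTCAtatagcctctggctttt
Mmp3, chr9:7445759-7445799, plus strand: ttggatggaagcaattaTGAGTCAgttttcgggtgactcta
Mmp1a, chr9:7464051-7464091, plus strand: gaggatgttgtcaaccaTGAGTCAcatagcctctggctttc
Mmp10, chr9:7502262-7502302, plus strand: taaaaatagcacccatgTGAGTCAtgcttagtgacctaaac
Mmp7, chr9:7692010-7692050, plus strand: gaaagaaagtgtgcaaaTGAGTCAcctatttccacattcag
The letters began between 35 and 93 bases before the start. They were found in 7 of the 10 Mmp genes on chromosome 9 with a promoter sequence, and not in these windows of Mmp8, Mmp20 and Mmp27. Over the whole family 9 of 59 promoter windows held them (15.3%), Adam19 and Adam29 being the others, against 4.46% of 32851 mouse promoters. The letters GGAATG or CATTCC, the reverse complement, which TEAD factors bind, were in 3 windows of the family (5.08%) and in 12.6% of all. The CArG box bound by SRF was in 0 of 59 windows and in 1.47% of all. A match of letters is a description and not a measured site.

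Other starts of the family differ in base composition. The median GC content of the 250 bases was 63.2% in 27 windows of genes with a peak within 1000 bp of a start, 66% in 9 windows of genes with peaks elsewhere, 40.4% in 23 windows of genes with no peak and 52.4% in all promoters, although the ranges of genes with and without a peak overlapped. The last 100 bases before the start are shown for 3 genes whose start peaks are described below, with CpG in capitals, on the strand of the gene.
Timp1, chrX:20870066-20870165, plus strand: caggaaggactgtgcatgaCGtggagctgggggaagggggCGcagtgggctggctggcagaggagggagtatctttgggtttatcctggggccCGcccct
Mmp14, chr14:54431498-54431597, plus strand: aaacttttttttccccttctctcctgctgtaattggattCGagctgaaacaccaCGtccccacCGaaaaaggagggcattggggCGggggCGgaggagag
Adamts12, chr15:11064673-11064772, plus strand: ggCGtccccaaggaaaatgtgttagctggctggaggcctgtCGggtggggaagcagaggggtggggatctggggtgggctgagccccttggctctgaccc
GC content over 250 bases was 54.4% for Timp1, 55.2% for Mmp14 and 63.2% for Adamts12, against 37.2% for Mmp10, 37.6% for Mmp3 and 42.0% for Mmp1b. Positions of peaks below are those of the deposited table, whose gene coordinates are those of GRCm39, and no sequence was read by them.

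Over the family, accessibility was modestly lower in siPiezo2, about as far as over all genes. Densities were summed over the peaks of a gene and compared as log2((siPiezo2 + 1)/(SCR + 1)), called the log2 ratio. Its median over the 57 genes was -0.12 (quartiles -0.30 and 0.0039) and over all genes -0.093, and 42 genes (73.7%) were below 0, against 62.6% of all. With median-of-ratios scaling in place of the authors' normalization, the median moved above 0, to 0.014, while that of all genes moved from -0.093 to 0.043, so the family's median differed from that of all genes by -0.032 before and -0.028 after, and its sign rests on the scaling. Below, a single gene or peak is called lower or higher against SCR as deposited, and the medians of groups are set beside the -0.093 of all genes.

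Of the 57 genes, 7 (12.3%) were lower past the threshold of 0.66 of SCR, as were 6.21% of all genes, and 0 were higher past 1.5 of SCR, as were 1.54% of all genes. The lower genes were Mmp3, Mmp1b, Adam18, Mmp10, Adamts10, Adamts12 and Adamts20. Under median-of-ratios scaling 3 of the 57 genes were lower and 2 higher, beside 3.42% and 3.83% of all genes. Weak genes take part in the main count, since among the 45 genes of the family with 100 reads or more 4 were lower (8.89%, against 4.65% of 13275 genes). The counting interval lay below 0 for 17 of the 57 genes, as it did for 15.2% of all genes, and above 0 for Timp2 and Adamts14, as it did for 4.37% of all genes. With the widened interval, Adamts12 and Timp3 lay below 0 and none of the 57 genes above it. The share of all genes was not counted for the widened interval, so these counts have no background.

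**Figure D1:**
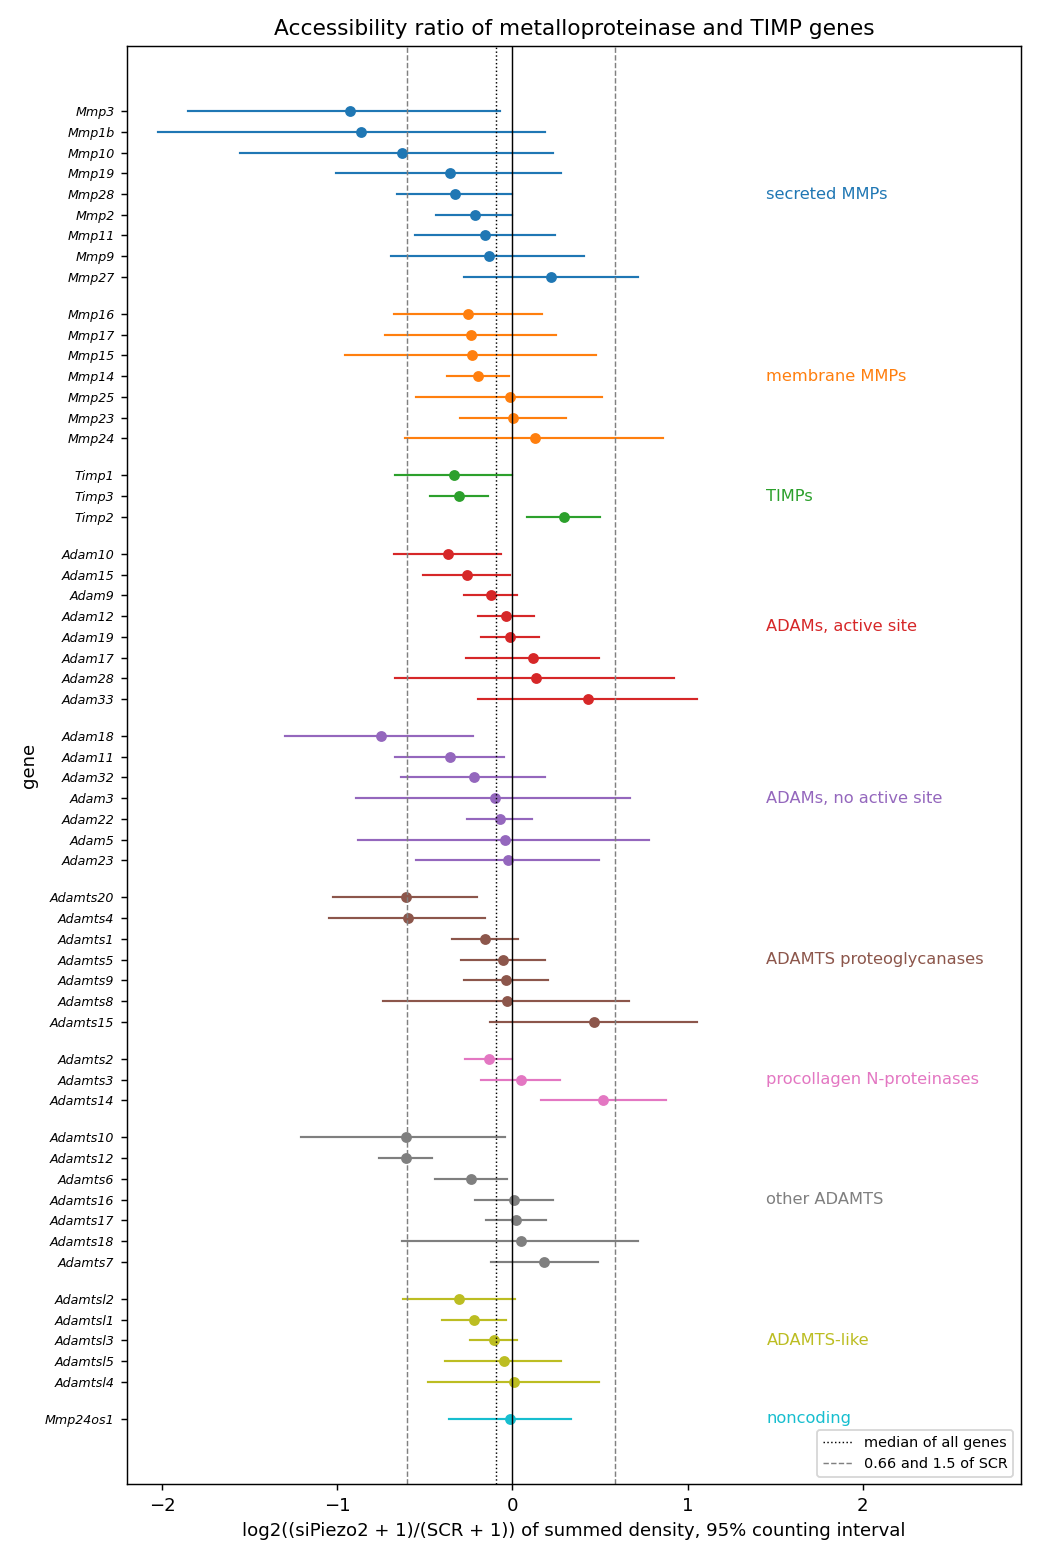
Log2 ratio of summed density, siPiezo2 over SCR, for the 57 genes by role, with points for the ratio and lines for the 95% counting interval, and dashed lines at 0.66 and 1.5 of SCR. The 7 lower genes sit left of the first dashed line and include 3 secreted Mmp genes, and Timp2 sits right of 0 while Timp1 and Timp3 sit left of it.

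Among the 244 peaks of the family, 41 (16.8%) were below 0.66 of SCR, as were 13.5% of all peaks, and 8 (3.28%) were above 1.5 of SCR, as were 3.21% of all peaks. The lowered peaks belonged to 24 genes and the raised ones to 7, with 5 genes holding both kinds. Most of the peaks, 186, lay in introns, where the median log2 ratio was -0.14 for the family and -0.17 for all intron peaks. At the 27 peaks annotated as promoter, at most 1 kb upstream of a start, the median was -0.11 and 5 were lowered (18.5%), beside a median of -0.030 and 5.86% lowered over 9251 promoter peaks of the table. The 5 lowered promoter peaks were all called in SCR only, so each was chosen for its signal in that library. Under median-of-ratios scaling the promoter median of the family was 0.023 and that of all promoter peaks 0.11.

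The direction of a peak went with the library that had called it. Of the family's peaks 65.6% were called in SCR only, as were 64.0% of all peaks, and a peak called in 1 library was chosen for its signal there. The 160 peaks called in SCR only had a median log2 ratio of -0.23 with 36 lowered (22.5%), where the peaks of all genes had -0.22 with 17.2% lowered. The 78 called in both had a median of 0.049 with 5 lowered and 5 raised (6.41% each), where the peaks of all genes had 0.0096 with 4.503% lowered and 3.80% raised. The 6 called in siPiezo2 only had a median of 0.15, where the peaks of all genes had 0.51. When each gene was measured on peaks called in both libraries, 33 genes had a median of 0.011 and all genes 0.0086.

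**Figure D2:**
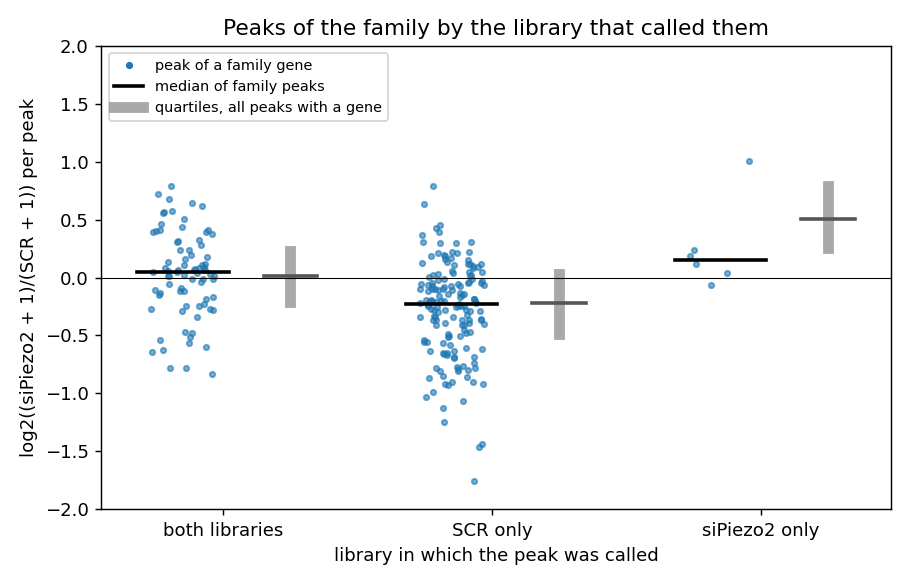
Log2 ratio of each of the 244 peaks, grouped by the library in which the peak was called, with black lines for the family's medians and grey bars for the quartiles over the peaks of all genes. Peaks called in SCR only lie mostly below 0 (median -0.23) and those called in both lie around 0 (median 0.049).

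The secreted Mmp genes had a median of -0.33 (all genes -0.093) over 9 of 16 genes with a peak. Of the 9 genes 3 were past 0.66 of SCR (33.3%, all genes 6.21%) and 8 were below 0 (88.9%, all genes 62.6%). The 3 genes, Mmp3, Mmp1b and Mmp10, are named after their values were seen, since each had under 100 reads. This count rests on the scaling. Mmp10 was past 0.66 of SCR under none of the other scalings. With recovered reads scaled to equal totals only Mmp3 was (all genes 3.02%). Mmp3, stromelysin 1, which cuts proteoglycans and activates other Mmp precursors, had 1 peak, in its last intron, with 19.5 in SCR and 9.80 in siPiezo2 (44 and 16 reads, log2 ratio -0.93, interval -1.85 to -0.072). Mmp1b, a rodent relative of interstitial collagenase, had 1 promoter peak with 13.0 and 6.68 (28 and 11 reads, -0.87, interval -2.02 to 0.18). Mmp10, stromelysin 2, had 1 promoter peak with 16.6 and 10.3 (37 and 17 reads, -0.63, interval -1.55 to 0.23). The promoter peaks of Mmp1b and Mmp10 lie at the starts whose AP-1 letters are printed above. All 3 peaks were called in SCR only, and the differences of Mmp1b and Mmp10 were not detectable at this depth, nor was that of Mmp3 with the widened interval (-2.32 to 0.36).

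Their peaks follow each other in the Mmp cluster of chromosome 9, where Mmp1a, which had no peak, lies between Mmp3 and Mmp10. The cluster held 11 peaks over 342 kb when intergenic peaks nearest a start of the cluster's 10 genes were added. Of the cluster's 11 peaks 5 were lower, beside 63.7% of all peaks. These 5 lay in a row in the middle of the cluster and were picked after their values were seen. They were the peaks of Mmp1b, Mmp3 and Mmp10, and a pair of intergenic peaks upstream of Mmp8, neutrophil collagenase, with 45.5 and 28.8 (113 and 45 reads, -0.64, interval -1.17 to -0.13) and 47.2 and 31.5 (118 and 49 reads, -0.57, interval -1.08 to -0.076) in SCR and siPiezo2. The windows of this pair overlap, so they are not separate measurements. On both sides of the 5 peaks values were near equal or higher in siPiezo2. Mmp27 had 33.8 and 39.6 over 2 intron peaks (0.22, interval -0.28 to 0.72), and the intergenic peaks near Mmp13, collagenase 3, had 37.8 and 42.9 (0.18, interval -0.30 to 0.65). The sum over the cluster was 268 in SCR and 230 in siPiezo2 (-0.22, interval -0.41 to -0.034). That interval covers counting error alone and counts the overlapping pair as separate reads, so it is too narrow.

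**Figure D3:**
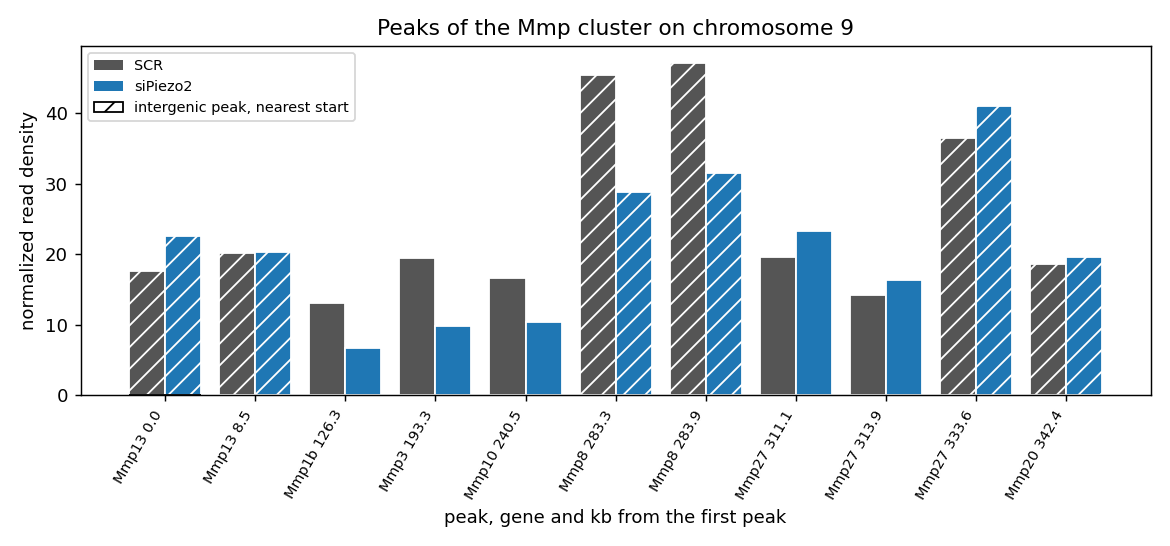
Normalized read density in SCR and siPiezo2 of the 11 peaks of the chromosome 9 Mmp cluster, in order along the chromosome and labelled by gene and kb from the first peak, with hatched bars for intergenic peaks. The 5 peaks from Mmp1b to the pair near Mmp8 are lower in siPiezo2, and the 6 around them are not, where 63.7% of all peaks are lower.

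Mmp2, the gelatinase that fibroblasts make in large amounts, had 5 peaks with a sum of 204 in SCR and 175 in siPiezo2 (510 and 273 reads, -0.22, interval -0.43 to -0.0017, widened -0.55 to 0.11). Its start peak, in the 5′ UTR, had 19.8 and 18.4, and 4 peaks in the last introns had from 44.2 to 47.1 in SCR and from 33.5 to 46.1 in siPiezo2. The difference of Mmp2 is thus small at the start and not uniform further in, and the 1 peak called in both libraries had 45.7 and 46.1 (0.011). Mmp9, the other gelatinase, had 1 exon peak with 31.99 and 29.0 (-0.14, interval -0.69 to 0.41). Mmp28, epilysin, had 94.97 and 75.5 over 3 peaks (-0.33, interval -0.66 to -0.0019, widened -0.83 to 0.16). Mmp11, stromelysin 3, had 59.6 and 53.4 over 2 peaks (-0.16, interval -0.56 to 0.24).

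All 7 membrane Mmp genes of the list had a peak, with a median of -0.19 (all genes -0.093). Of the 7 genes 0 were past 0.66 or 1.5 of SCR, beside 6.21% and 1.54% of all genes. Mmp14, the membrane collagenase that also activates the Mmp2 precursor together with Timp2, had the most reads of these, with 297 in SCR and 259 in siPiezo2 over 5 peaks (769 and 393 reads, -0.19, interval -0.37 to -0.018, widened -0.47 to 0.073). The difference lay in 2 of its peaks. The start peak had 43.7 and 26.8 (108 and 42 reads, -0.68, interval -1.23 to -0.16), past 0.66 of SCR, and a peak in intron 1 had 80.8 and 57.6 (-0.48, interval -0.86 to -0.11). The other intron 1 peak had 51.9 and 49.7, and the peaks at the 3′ end had 59.9 and 61.6 and 60.9 and 63.7, so these were nearly equal. Windows overlap within the pair in intron 1 and within the pair at the 3′ end, so these pairs are not separate measurements. Mmp16 was lower over its sum (56.3 and 47.1, -0.25, interval -0.68 to 0.17) yet higher at its start (18.8 and 24.6, 0.37), and its sum rested on an exon 5 peak of 24.3 and 11.1. Mmp17 had 42.1 and 35.6 (-0.24), Mmp23 had 96.4 and 96.6 (0.0039) and Mmp25 had 32.6 and 32.3 (-0.015).

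The Timp genes did not move together. Timp1 and Timp3 were lower in siPiezo2 and Timp2 was higher, each in all of the processing alternatives run, and the list's median of -0.31 (all genes -0.093) stands for 3 of its 4 genes. Timp1, the inhibitor that TGF-β is known to induce in fibroblasts, had 92.0 in SCR and 72.9 in siPiezo2 over 2 promoter peaks (231 and 113 reads, -0.33, interval -0.67 to -0.0012, widened interval -0.84 to 0.17). The peak nearer the start had 46.8 and 38.1 and the one further upstream 45.1 and 34.7. Their windows overlap, so reads between them count in both, and the gene lies within Syn1 on the other strand.

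Timp3, the inhibitor that binds to the matrix and also blocks Adam17 and aggrecanases, had 368 in SCR and 297 in siPiezo2 over 6 peaks (955 and 446 reads, -0.31, interval -0.47 to -0.14, widened interval -0.56 to -0.058). Its peaks were of 2 kinds. The 5′ UTR peak at the start had 46.0 and 47.4, and a pair in intron 2 had 75.4 and 79.0 and 72.4 and 74.0, so these were equal in both libraries to within counting error. In contrast, 3 peaks were below 0.66 of SCR. A peak in intron 1 had 104 and 65.99 (278 and 97 reads, -0.64, interval -0.99 to -0.30), another in intron 1 had 38.2 and 22.1 (93 and 35 reads, -0.76, interval -1.37 to -0.19), and a peak in the 3′ UTR had 31.99 and 8.79 (74 and 14 reads, -1.75, interval -2.69 to -0.92). That 3′ UTR peak, on chromosome 10 from 86182231 to 86182554, had the lowest log2 ratio of the family's 244 peaks and of the table's 841 peaks in 3′ UTRs, and is named after its value was seen. The intron 1 peak with 38.2 and 22.1 and the 3′ UTR peak were called in SCR only. The other intron 1 peak and the pair in intron 2 were called in both libraries, and the start peak in siPiezo2 only. Leaving out any 1 peak moved the log2 ratio of Timp3 between -0.42 and -0.19. Timp3 lies within Syn3 on the other strand, and ATAC-seq reads carry no strand.

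Timp2, which inhibits Mmp2 and takes part in its activation, had 178 in SCR and 218 in siPiezo2 over 5 peaks (447 and 339 reads, 0.29, interval 0.085 to 0.50, widened interval -0.021 to 0.61). All 5 peaks were higher, with log2 ratios from 0.12 to 0.41 and none past 1.5 of SCR. The 5′ UTR peak had 29.8 and 35.4, and 4 peaks in intron 1 had from 26.8 to 61.2 in SCR and from 32.1 to 76.2 in siPiezo2. A further 4 intergenic peaks, assigned to no gene by the table, have their nearest start at Timp2, and their sum was 183 in SCR and 248 in siPiezo2 (473 and 376 reads, 0.43, interval 0.24 to 0.63). The 3 nearer ones had 47.0 and 63.7, 58.7 and 85.0, and 52.8 and 77.7, while the farthest had 24.9 and 21.7. Thus 8 of the 9 peaks at Timp2 were higher in siPiezo2, and the 5 assigned peaks kept a log2 ratio between 0.29 and 0.44 over the alternatives.

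**Figure D4:**
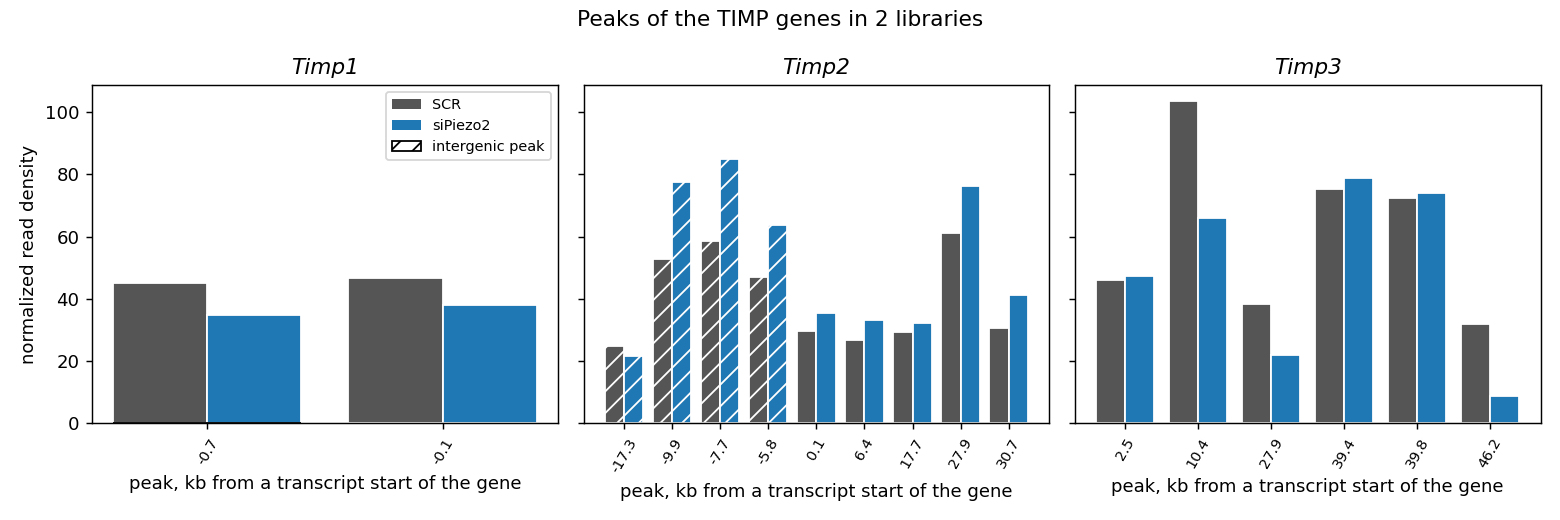
Normalized read density in SCR and siPiezo2 at each peak of Timp1, Timp2 and Timp3, with the distance of the peak from a transcript start of the gene in kb and hatched bars for intergenic peaks nearest to Timp2. Timp2 is higher in siPiezo2 at 8 of 9 peaks, Timp1 is lower at both, and Timp3 is lower at 3 of 6 and equal at the start.

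The ADAMs with a zinc-binding active site had a median of -0.025 (0.11 under median-of-ratios scaling), above that of all genes under both, over 8 of 20 genes with a peak. Of the 8 genes 0 were past 0.66 or 1.5 of SCR, beside 6.21% and 1.54% of all genes. Adam10, the main sheddase of Notch receptors and cadherins, had 111 in SCR and 85.5 in siPiezo2 over 4 peaks (266 and 136 reads, -0.37, interval -0.68 to -0.067, widened -0.84 to 0.088). Its start peak differed little, with 44.1 and 40.7 (-0.11), and the sum of 3 intron peaks had 66.7 and 44.8 (-0.56). One of these, in intron 1, had 31.2 and 16.2 (74 and 26 reads, -0.90) and was among the 5 lowest of the stronger peaks of the family. Adam17, which releases TNF and ligands of the EGF receptor, went the other way at its start, with 39.6 and 49.1 (0.30), and had 58.8 and 63.7 over 2 peaks (0.11, interval -0.27 to 0.49).

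Adam15 had 158 in SCR and 132 in siPiezo2 (-0.26, interval -0.51 to -0.014, widened -0.64 to 0.11), over 3 peaks at its start whose windows overlap, so the same reads count more than once. One window alone had 45.4 and 37.4 (-0.27, interval -0.75 to 0.20). Genes with many peaks and nearly no net difference were Adam12 and Adam19. Adam12, a marker of activated stromal cells, had 343 and 335 over 14 peaks (-0.035, interval -0.19 to 0.12). Its peaks ranged from -0.83 to 0.79, and the highest, in intron 3, with 21.9 and 38.7 (53 and 62 reads), was the highest of the stronger peaks of the family. Adam19 had 320 and 317 over 10 peaks (-0.015). Adam9 had 390 and 358 over 10 peaks (-0.12, interval -0.28 to 0.027), and without overlapping windows its log2 ratio was -0.28.

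The ADAMs that lack the active site had a median of -0.099, near that of all genes, and all 7 with a peak were below 0 (all genes 62.6%). This sign rests on the scaling, since their median was 0.033 under median-of-ratios scaling with all genes at 0.043. Adam18, known from sperm, was the 1 gene past the threshold (14.3%, all genes 6.21%). Its 2 intron peaks added up to 45.3 in SCR and 26.5 in siPiezo2 (105 and 43 reads). The log2 ratio of Adam18 was -0.75 (interval -1.30 to -0.23, widened interval -1.58 to 0.043). Both peaks were lower, with 15.8 and 9.71 and with 29.5 and 16.8. Adam18 lies at an end of a cluster of 5 Adam genes on chromosome 8. Its neighbours Adam3, Adam5 and Adam32 had 16.3 and 15.2, 14.3 and 13.9, and 58.6 and 50.1, with intervals that include 0. Over the 19 peaks of the cluster the sum was 540 and 479 (-0.17, interval -0.30 to -0.041), of which Adam9 gave 390 and 358 over 10 peaks. The interval of this sum covers counting error alone and is too narrow, since some windows of Adam9 overlap. Adam11 had 108 and 84.1 (-0.36, interval -0.67 to -0.049, widened -0.83 to 0.11), and the brain adhesion proteins Adam22 and Adam23 had 264 and 251 (-0.074) and 34.1 and 33.5 (-0.023).

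Among the ADAMTS enzymes that cut proteoglycans, all 7 had a peak. Their median was -0.054, and 0.085 under median-of-ratios scaling (all genes -0.093 and 0.043). The lower threshold was passed by 1 gene as deposited (14.3%, all genes 6.21%). Adamts20 had 70.0 in SCR and 45.5 in siPiezo2 over 4 peaks (158 and 75 reads, -0.61, interval -1.03 to -0.20, widened -1.24 to 0.0038). Its difference rested on an exon 26 peak with 30.5 and 10.6, and without that peak the log2 ratio was -0.17. Adamts4, aggrecanase 1, stood just short of the threshold, with 59.9 and 39.4 (143 and 63 reads, -0.59, interval -1.05 to -0.16, widened -1.28 to 0.066). Its promoter peak had 31.6 and 16.2 (75 and 26 reads, -0.92, interval -1.62 to -0.26), the lowest promoter peak of the family, and its 5′ UTR peak 28.4 and 23.1. The other aggrecanase, Adamts5, was not lower at its start, where 2 peaks had 66.4 and 73.1 (0.14). Over all 5 peaks it had 153 and 147 (-0.054, interval -0.30 to 0.19).

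Adamts1, which cuts versican, had 260 in SCR and 233 in siPiezo2 over 5 peaks (-0.16, interval -0.35 to 0.031), with 193 and 183 at its starts. Adamts9 had 155 and 151 (-0.036), and Adamts15 had 1 downstream peak with 21.8 and 30.4 (0.46, interval -0.13 to 1.06).

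The procollagen N-proteinases, which remove the amino-terminal propeptide of fibrillar procollagens, had a median of 0.046, above that of all genes. Adamts14 had the highest log2 ratio of the 57 genes, with 56.5 in SCR and 81.4 in siPiezo2 over 2 peaks (139 and 128 reads, 0.52, interval 0.16 to 0.88, widened interval -0.022 to 1.06). The intron 1 peak, 923 bp from the start, had 33.8 and 54.7 from 85 reads in each library (0.68, interval 0.23 to 1.13), and the peak in the last intron 22.7 and 26.7 (0.22). Adamts14 passed 1.5 of SCR under each of the 4 other scalings. Adamts2, the main enzyme of the kind for type I procollagen, had 492 and 448 over 13 peaks (-0.14, interval -0.27 to -0.00093, widened -0.34 to 0.068). Of the 13 peaks 9 were lower, beside 63.7% of all peaks. The log2 ratio of Adamts2 was 0.0029 under median-of-ratios scaling, so its sign rests on the scaling. Adamts3 had 165 and 171 over 6 peaks (0.046, interval -0.18 to 0.27), with peaks from -0.57 to 0.64.

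Adamts12, an ADAMTS that cuts cartilage oligomeric matrix protein, showed the difference with the narrowest interval among the 7 lower genes. It had 486 in SCR and 318 in siPiezo2 over 16 peaks (1170 and 507 reads, -0.61, interval -0.76 to -0.46, widened interval -0.84 to -0.38). Of the 16 peaks 14 were lower and 9 were past 0.66 of SCR. The 2 promoter peaks had 50.2 and 31.6 and 49.3 and 34.2, and strong peaks about 20, 54 and 109 kb further on had 53.1 and 29.0, 51.6 and 29.0, and 49.2 and 17.2. The last of these, in intron 3 on chromosome 15 from 11173978 to 11174405 (120 and 27 reads, -1.46, interval -2.12 to -0.85), was the lowest of the stronger peaks of the family. Without it the log2 ratio of Adamts12 was -0.54, and the peaks that were higher had 17.6 and 24.5 and 22.8 and 24.8. All 16 peaks were called in SCR only, where 72.7% of the peaks of all genes were lower and 17.2% past 0.66 of SCR. The log2 ratio stayed between -0.74 and -0.46 over the alternatives, but with median-of-ratios scaling the ratio was no longer past 0.66. Set against the median of all genes, the difference was -0.52 as deposited and -0.51 under that scaling.

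**Figure D5:**
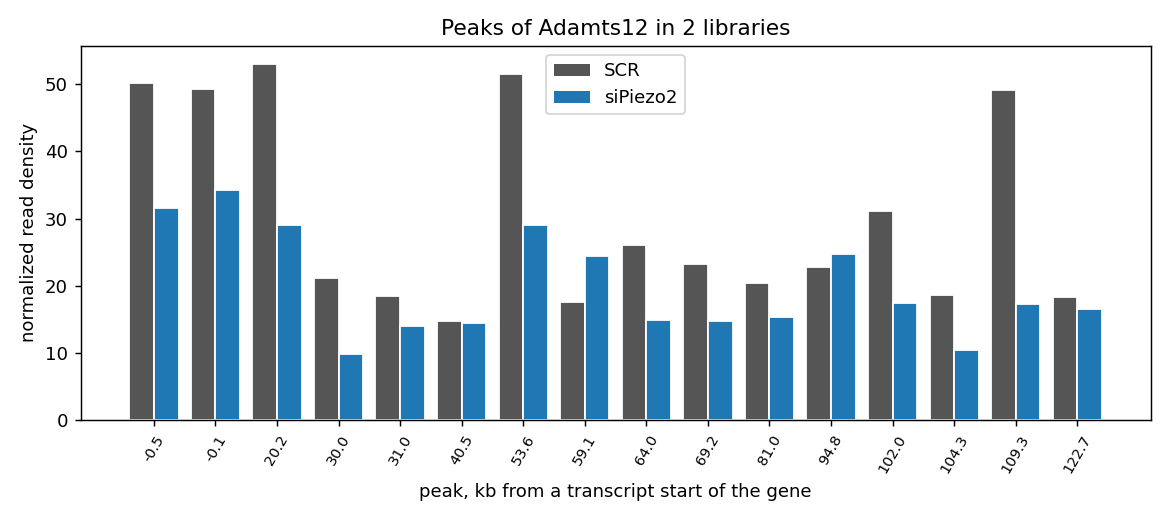
Normalized read density in SCR and siPiezo2 at the 16 peaks of Adamts12, labelled by distance from its transcript start in kb. Of these, 14 are lower in siPiezo2, among them both peaks at the start, and 2 are higher.

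The remaining ADAMTS genes had a median of 0.011 over 7 of 9 genes, so Adamts12 and Adamts10 stood apart from most of their list. Adamts10, which binds fibrillin, had 1 peak, annotated as promoter at -1627 bp from a start, with 36.2 and 23.4 (88 and 37 reads, -0.61, interval -1.20 to -0.040, widened -1.51 to 0.25). An intergenic peak with its nearest start at Adamts10 was also lower, with 76.0 and 37.6 (196 and 57 reads, -0.996, interval -1.45 to -0.56). Adamts6 had 229 and 194 over 9 peaks (-0.24, interval -0.44 to -0.034, widened -0.55 to 0.070) and ranged from -1.25 to 0.51. Over the peaks of Adamts6 called in both libraries the log2 ratio was 0.21. Its intron 1 peak with 38.2 and 17.02 (92 and 27 reads, -1.12) and its intron 22 peak with 34.98 and 18.2 (-0.90) were among the 5 lowest of the stronger peaks. Adamts16 held both a lowered peak in intron 6 (29.3 and 14.3, -0.99) and raised peaks in intron 8 (26.1 and 43.6, 0.72) and intron 3 (11.1 and 23.4, 1.01), which left a sum of 177 and 178. Adamts17 had 299 and 303 over 11 peaks (0.020) and Adamts7 had 87.7 and 99.7 (0.18, interval -0.12 to 0.48).

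The ADAMTS-like proteins have no protease domain and bind to fibrillin-rich matrix. Their median was -0.11 over 5 genes (0.033 under median-of-ratios scaling), near that of all genes under both. Adamtsl1 was lower at 12 of its 15 peaks, beside 63.7% of all peaks. Nearly all of its peaks were called in SCR only, and 72.7% of the peaks of all genes called so were lower. It had 287 in SCR and 246 in siPiezo2 (-0.22, interval -0.40 to -0.040, widened -0.50 to 0.053), and none of its peaks lay within 1000 bp of a start. Adamtsl2, whose product binds a TGF-β binding protein of the matrix, had 98.3 and 79.5 over 3 peaks (-0.30, interval -0.63 to 0.014). Adamtsl3 had 489 and 454 over 17 peaks (-0.11, interval -0.24 to 0.028), Adamtsl4 had 38.1 and 38.4 (0.011) and Adamtsl5 had 82.3 and 79.4 (-0.051). For Adamtsl4, 2 intergenic peaks with their nearest start there had 110 and 68.9 (279 and 106 reads, -0.67, interval -1.01 to -0.35). The noncoding gene Mmp24os1, named for the opposite strand of Mmp24, had 73.2 and 72.6.

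Peaks of 1 gene were not replicates, and they often differed. Of the 39 genes with 2 or more peaks, 25 kept the sign of their log2 ratio whichever 1 peak was left out. Overlap also holds for the pairs at the starts of Adamts5 and Adamts12 and in intron 2 of Timp3, among the last intron peaks of Mmp2 and among the start peaks of Adamts1. Without overlapping windows the log2 ratio was -0.34 for Adam11 and -0.92 for Adamts4, each from 1 peak, -0.28 for Adam9 and -0.11 for Adamts6. Intergenic peaks, which the table gives no symbol, had a nearest start in the family in 64 cases, at 30 genes. These 64 peaks had a median of -0.054, with 11 lowered (17.2%) and 1 raised (1.56%), beside a median of -0.17 over all 19452 peaks without a symbol, of which 16.6% were lowered and 4.09% raised. Besides the genes named above, the sum of 2 intergenic peaks at Mmp19 was higher, 127 and 160 (0.33, interval 0.080 to 0.57), whereas its 5′ UTR peak had 26.5 and 20.5 (-0.36, interval -1.01 to 0.27), and 8 intergenic peaks at Adamts20 had 204 and 163 (-0.32, interval -0.54 to -0.10).

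Genes that act on the family or are cut by it were taken from lists as well. Among 23 regulators with a peak, the median was -0.096 (all genes -0.093), and 15 were below 0 (65.2%, all genes 62.6%). The counting interval lay below 0 for 5 of the 23 (all genes 15.2%) and above 0 for 3 (all genes 4.37%). Sparc, a matricellular protein, had 428 and 300 (-0.51, interval -0.67 to -0.35). The proprotein convertases Pcsk7 and Pcsk6 had 91.7 and 60.8 (-0.59, interval -0.95 to -0.23, widened -1.13 to -0.056) and 217 and 174 (-0.31, interval -0.53 to -0.10, widened -0.64 to 0.0065). Lrp1, a receptor that clears Mmp enzymes and Timp proteins, had 439 and 356 over 9 peaks (-0.30, interval -0.45 to -0.15, widened -0.53 to -0.078), while Reck, a membrane inhibitor of Mmp enzymes, had 80.5 and 70.6 (-0.19) and Furin, which activates their precursors, 43.2 and 36.0 (-0.26). Bsg, which induces Mmp enzymes, was higher, with 56.7 and 73.9 (0.38, interval 0.0091 to 0.74, widened -0.18 to 0.93), as were Tspan14 (160 and 194, 0.28, interval 0.060 to 0.50, widened -0.053 to 0.61) and Tspan33 (35.03 and 49.1, 0.47, interval 0.012 to 0.94, widened -0.22 to 1.17), tetraspanins that bind Adam10. Of the other tetraspanins that do so, Tspan17 had 110 and 94.3 (-0.22), Tspan5 had 233 and 248 (0.087) and Tspan15 had 90.9 and 97.6 (0.10), each with an interval that includes 0. Among 25 substrates with a peak, the median was -0.24 (all genes -0.093) and 20 were below 0 (80%, all genes 62.6%). The 1 gene past 0.66 of SCR (4%, all genes 6.21%) was Fn1, fibronectin (268 and 147, -0.87, interval -1.09 to -0.65). The basement membrane proteoglycan Hspg2 had 549 and 371 (-0.57, interval -0.71 to -0.42) and Fbn1, fibrillin 1, had 1256 and 946 over 31 peaks (-0.41, interval -0.50 to -0.32). Versican, Vcan, cut by several of the ADAMTS enzymes, had 75.3 and 63.7 (-0.24), and the shed growth factor Hbegf had 67.2 and 68.1 (0.018). Tgfa, another ligand released by Adam17, had a log2 ratio of 0.50 from 74 and 75 reads (interval 0.016 to 0.98, widened -0.23 to 1.23). The ligands Ereg and Nrg1 went the other way, with 148 and 110 (-0.42, interval -0.69 to -0.15, widened -0.83 to -0.019) and with 570 and 438 over 20 peaks (-0.38, interval -0.51 to -0.25, widened -0.58 to -0.18). These lists were chosen with earlier results of the data known.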

How the data were processed

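The deposited table holds 1 row per peak. Per the labels, reads were aligned with BWA 0.7.12 to mm10, although the table's gene coordinates are those of GRCm39, and the methods name removal of duplicates with Picard and calling with MACS2. The authors deposited a read density per peak and library, a normalized signal. The normalization is not given in the sources used here, and a correction by a linear fit of log2 ratios against mean log2 density was inferred from the values. The authors' own log2 ratio, M, A and p-value columns were not used. Column names were mapped to the libraries by their titles, NC standing for SCR.

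Log2((siPiezo2 + 1)/(SCR + 1)) was taken from the densities, for single peaks and for the sum over each gene, with a pseudocount of 1 that understates the change of weak peaks. The thresholds were 0.66 and 1.5 of SCR. Sums grow with the number of peaks and were not compared between genes. Densities came from whole reads in windows of 2000 bp in 100% of peaks, with a fit of slope 0.17 and intercept -0.25, and the 95% intervals rest on these reads and so on the inferred fit. Overlap with the window before affected 28 of the 244 peaks, which makes intervals of such sums too narrow.

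Named were all Timp genes, the 2 lowest and 2 highest of each other role list with 100 reads or more, genes with 8 or more peaks, and the 5 lowest and 5 highest peaks at or above the median density of all peaks (called stronger, 141 of 244). Other genes and peaks were named after their values were seen. The members, lists and rules were chosen with earlier results of these data known. Intergenic peaks were tied to the gene of their nearest start through GENCODE M21 names, which matched the IDs of 95.5% of peaks. The procedures were tested on simulated data. Alternatives were a pseudocount of 0.1, 4 scalings, filters on peaks, a fold of 2 and, chosen after seeing the data, genes with 100 reads or more and added intergenic peaks. Tables and intervals were made with scipy 1.17.1, pandas 2.3.3 and numpy 2.4.6 in Python 3.11.15, and plots with matplotlib 3.10.9. The values of 1 gene of the regulator list are not reported here.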

Additional observations from a re-analysis of the deposited data

How the results depend on the processing

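Scaling set the sign of the small medians. Under median-of-ratios scaling, trimmed mean scaling and recovered reads scaled to equal totals, the median over the 57 genes was 0.014, 0.018 and 0.012 (all genes 0.043, 0.046 and 0.030), that of the ADAMs without an active site 0.033, 0.036 and 0.085, and that of the ADAMTS-like genes 0.033, 0.037 and 0.025. Of the 57 genes 3, 3 and 1 were then below 0.66 of SCR (all genes 3.42%, 3.38% and 3.02%) and 2, 2 and 3 above 1.5 (3.83%, 3.89% and 4.32%), and of the 244 peaks 14, 14 and 19 were raised (all peaks 6.27%, 6.37% and 7.998%), so the whole table shifted. Under the first 2 of these the promoter median was 0.023 and 0.026, and the third left 26 lowered peaks (all peaks 7.42%). With the same total density 3 genes were lower and 1 higher (all genes 4.22% and 2.70%), and the ADAMs without an active site had a median of -0.016. In these scalings the secreted Mmp median differed from that of all genes by -0.23 to -0.21. The 3 genes still lower under the density scalings were Mmp3, Mmp1b and Adam18, and with reads Mmp3. Mmp10 was past 0.66 under none of these scalings, and its log2 ratio rose to as much as -0.36 over the alternatives. Adamts10, Adamts12 and Adamts20 were no longer past 0.66, at -0.48, -0.47 and -0.47 under median-of-ratios scaling, yet differed from the median of all genes by -0.52, -0.51 and -0.51 there and by -0.52 each as deposited.

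With peaks called in both libraries the family median was 0.011, the promoter median 0.065 and that of other ADAMTS genes 0.20, with 2 of 33 genes lower and 1 higher (all genes 2.71% and 2.41%) and 5 of 78 peaks lowered and 5 raised (all peaks 5.36% and 4.41%). With peaks at or above the median density 3 of 40 genes (all genes 5.70%) and 20 of 141 peaks (all peaks 11.5%) were lower. Promoter peaks left 4 of 25 genes lower (all genes 5.33%; Adamts4, Mmp10, Mmp14 and Mmp1b) and a proteoglycanase median of -0.63. The strongest peak of each gene gave 1 higher gene, Adamts14, and separate windows a Timp median of -0.37. At a fold of 2, 0 genes were lower (all genes 0.84%), and 7 peaks were lowered and 1 raised (all peaks 2.76% and 0.50%). Genes with 100 reads or more left 4 of 45 lower (all genes 4.65%). No gene past a threshold as reported changed sign. Adamtsl1 was past 0.66 of SCR at -0.62 with peaks called in both libraries, peaks at or above the median density or the strongest peak, which is the same peak, and was 0.025 with recovered reads. The widened interval came to include 0 for 15 of the 38 genes chosen by rule, Timp1 and Mmp2 among them. The cause of these changes was not tested.

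Depth was low for genes with 1 weak peak, such as Mmp1b with 28 and 11 reads. No paired analysis was possible because each group had 1 library and the labels carry no replicate number.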
